A study of Mus musculus with 8 samples.

Results

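The mitochondrially encoded transcripts of alphaTC6 cells held 4.11% to 5.89% of the counts in every library, and siRNA against Klf4 left none of them past the test for a change. They were chosen as every row of the count table whose gene symbol starts with mt-, which gave 37 of 55536 rows. These 37 genes are the full annotated set of the mitochondrial genome, with 13 messenger RNAs (mRNAs), 2 ribosomal RNAs (rRNAs) and 22 transfer RNAs (tRNAs). In genome order, 28 lie on the plus strand and 9 on the minus strand. After a filter on low counts 24 could be tested, namely the 13 mRNAs, the 2 rRNAs and 9 tRNAs. The other 13 are all tRNAs, with at most 17 counts in any library, and mt-Tf had no count in any.

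Mitochondrial DNA (mtDNA) is a small circular genome kept in many copies per cell. Each of its strands is transcribed into long precursor RNAs by the polymerase Polrmt with the help of Tfam, and enzymes cut the precursors at the tRNAs that sit between the other genes. All mtDNA mRNAs encode subunits of the respiratory chain or of ATP synthase, where they join a larger number of subunits encoded in the nucleus. In alpha cells of the pancreas, mitochondrial ATP is one of the signals that couple fuel supply to glucagon release.

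The cells are a line of glucagon-producing alpha cells from the mouse, labelled as wild type (WT). Such lines come from alpha cell tumours of mice carrying a viral oncogene under a glucagon gene promoter, so all libraries share that background. Cells were reverse transfected for 48 h with lipid reagent carrying either a pool of siRNAs against Klf4, a zinc finger transcription factor, or a scramble siRNA as control, and the study asked how Klf4 regulates gene expression in these cells. There were 4 biological replicates of each treatment, per the design text. Batch 1 held scramble replicates 1 and 2 and Klf4 siRNA replicates 1, 2 and 4, and batch 2 held scramble replicates 3 and 4 and Klf4 siRNA replicate 3. What set the batches apart is not given in the sources used here.

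Libraries held between 45954151 and 64185987 counts. Klf4 itself, the check on the labels, lay between 35.1 and 46.8 CPM (counts divided by the scaled library size, on a common scale) in scramble cells and between 11.5 and 19.8 CPM after Klf4 siRNA. The log2 fold change of -1.33 (SE 0.17) had an edgeR adjusted p of 0.0083, which rose past the threshold to 0.052 when scramble replicate 1 was left out. The alpha cell genes Gcg (1065 to 8913 CPM), Irx2 (238 to 262 CPM), Ttr (388 to 639 CPM) and Pcsk2 (2690 to 2942 CPM) were present in every library. Ins1 and Ins2 of beta cells and Prss2 of acinar cells had 0 counts, and Ptprc of leukocytes had at most 1, and none of 11 markers of other cell types passed 23 counts. The extraction text in the labels speaks of islets, whereas each sample is labelled as the cell line.

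One stretch of the mitochondrial sequence is repeated almost letter for letter by annotated nuclear genes, which matters for reading its counts and is shown here for that reason. The sequences come from the GENCODE release 21 transcripts of GRCm38. At bases 1063 to 1152 of mt-Co1, which encodes a core subunit of complex IV, copies stand on chromosome 1 (Gm29216) and chromosome 2 (Gm13340). Capitals mark the bases at which a copy differs from mt-Co1.
mt-Co1, chrM:6390-6479: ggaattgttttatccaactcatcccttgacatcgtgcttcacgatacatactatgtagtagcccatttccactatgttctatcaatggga
Gm29216, chr1:24616099-24616188, minus strand: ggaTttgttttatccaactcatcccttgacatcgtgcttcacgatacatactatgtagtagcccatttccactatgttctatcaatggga
Gm13340, chr2:22588496-22588585, minus strand: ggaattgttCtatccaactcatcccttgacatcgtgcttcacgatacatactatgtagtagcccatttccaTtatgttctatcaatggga
In these 90 bases the chromosome 1 copy has 1 substitution (A1066T) and the chromosome 2 copy has 2 (T1072C and C1134T), with positions counted from base 1 of mt-Co1 and the mitochondrial base given before the position.

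Mitochondrial genes also abut or overlap, so a count can belong to its neighbour. The mRNA of mt-Atp8, a small subunit of ATP synthase, shares its last 43 bases (capitals) with mt-Atp6.
mt-Atp8, chrM:7766-7969: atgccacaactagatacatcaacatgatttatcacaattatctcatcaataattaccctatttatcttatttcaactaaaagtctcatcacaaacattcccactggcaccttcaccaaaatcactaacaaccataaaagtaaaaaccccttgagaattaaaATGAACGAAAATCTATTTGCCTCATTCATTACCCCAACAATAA
The tryptophan tRNA mt-Tw, the tRNA with the most counts, shares its 2 leading bases (capitals) with the end of mt-Nd2.
mt-Tw, chrM:4950-5016: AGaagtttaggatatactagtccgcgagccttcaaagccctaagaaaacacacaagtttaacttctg
Of the 13 mRNAs, 3 end on a lone T of an unfinished stop codon (capital), which the poly(A) tail completes, and it is that tail by which the library kit selects mRNA.
mt-Co3, chrM:9367-9390: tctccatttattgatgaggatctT
mt-Nd4, chrM:11521-11544: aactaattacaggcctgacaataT
mt-Cytb, chrM:15265-15288: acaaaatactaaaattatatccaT

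The share of a library's counts in mitochondrial genes was 5.42%, 4.51%, 4.63% and 5.87% in scramble cells (replicates in the order 1 to 4), and 5.59%, 4.11%, 5.75% and 5.89% after Klf4 siRNA. Scramble replicates 2 and 3 and Klf4 siRNA replicate 2 were low, and the groups overlapped over nearly their whole range. The mean was 5.11% ± 0.651 in scramble cells and 5.33% ± 0.822 after Klf4 siRNA (SD, n = 4 each), a difference of 0.229 percentage points that is smaller than either SD. The difference stayed positive but depended on single libraries. Among scramble libraries, it was 0.029 when replicate 2 was dropped, 0.070 when replicate 3 was and 0.485 when replicate 4 was. Among Klf4 siRNA libraries, dropping replicates 1 to 4 one at a time gave 0.143, 0.636, 0.092 and 0.045. Within batch 1 the difference was 0.237 and within batch 2 it was 0.496 percentage points, the latter with a single Klf4 siRNA library. Batch 1 averaged 5.10% ± 0.756 (n = 5) and batch 2 averaged 5.42% ± 0.684 (n = 3). In a library of bulk RNA, fewer mitochondria per cell and less RNA per mitochondrion cannot be told apart, and each share also moves with the nuclear counts it is divided by.

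Messenger RNAs made up between 90.8% and 93.0% of the mitochondrial counts, rRNAs between 6.87% and 9.12%, and tRNAs the small remainder (at most 0.0075% of a library's counts). The mRNAs mt-Nd1, mt-Nd2, mt-Co1, mt-Nd5, mt-Cytb and mt-Nd4 together held between 89.9% and 92.1%. By total counts over the 8 libraries, mt-Nd1, mt-Co1, mt-Cytb, mt-Nd2 and mt-Nd5 were ranks 1 to 5 of the whole table. The other 7 mRNAs ranked far down, from 1829 for mt-Atp6 to 8677 for mt-Nd4l.

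**Figure D1:**
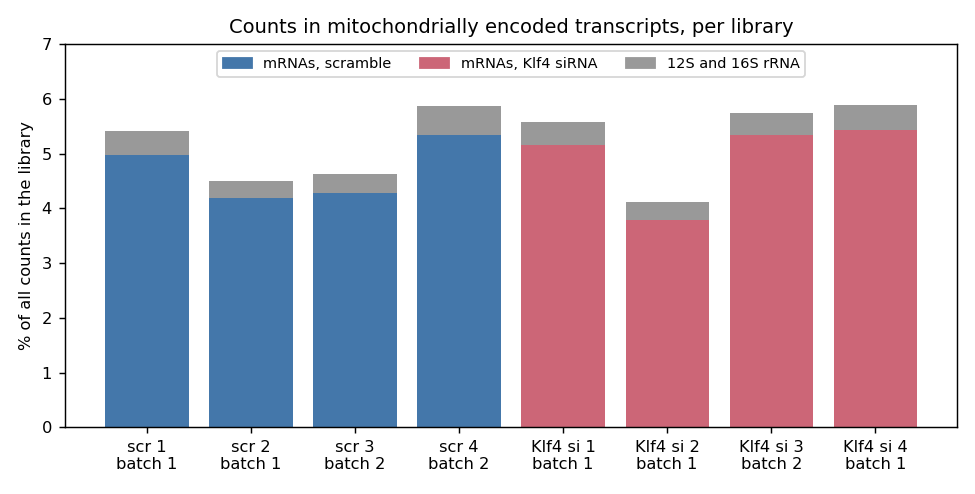
Share of each library's counts (%) in mitochondrial mRNAs (coloured) and rRNAs (grey) for the 4 scramble and 4 Klf4 siRNA libraries, with the batch under each bar. With the tRNAs, which are too few to draw, shares run from 4.11% (Klf4 siRNA replicate 2) to 5.89% (Klf4 siRNA replicate 4), and both treatments include high and low libraries.

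Levels between genes were compared per length, as mean CPM per kilobase (kb) of transcript over the 8 libraries (± SD). On that scale mt-Nd1 was highest at 12326 ± 1511, followed by mt-Co1 (7301 ± 1105), mt-Nd2 (7031 ± 947) and mt-Cytb (6472 ± 1109), whose ranges overlapped. Lower came mt-Nd5 (3944 ± 655), the 16S rRNA mt-Rnr2 (2274 ± 407), mt-Nd4 (1986 ± 393) and the 12S rRNA mt-Rnr1 (491 ± 207). Far lower came mt-Nd6 at 234 ± 57.7, mt-Atp6 at 195 ± 24.7, mt-Co2 at 135 ± 23.4, mt-Co3 at 109 ± 15.3 and mt-Atp8 at 104 ± 10.6. The lowest were mt-Nd3 at 52.3 ± 6.54 and mt-Nd4l at 47.8 ± 8.82. Over the 8 libraries the ranges of neighbours in this order overlapped within mt-Co1, mt-Nd2 and mt-Cytb, between mt-Rnr2 and mt-Nd4, between mt-Nd6 and mt-Atp6, from mt-Co2 to mt-Atp8, and between mt-Nd3 and mt-Nd4l. Genes cut from the same precursor differed widely in counts per kb.

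Of the mRNAs at the low end, 5 have a near-identical nuclear copy (at least 99% identity) over nearly their whole length. A search of the GENCODE transcripts (identity of at least 90% over at least 200 bases) found 15 annotated nuclear copies of 11 of the mRNAs, all but mt-Nd1 and mt-Atp8. Of these, 7 stand in a row at chr1:24611535-24616197 on the minus strand and span 4663 bases, and they match mtDNA positions 6390 to 11042. The copies of mt-Co2 (Gm28661), mt-Atp6 (Gm10925), mt-Co3 (Gm28437) and mt-Nd4l (Gm10222) are 100% identical to them over at least 98.99% of the member's length, and that of mt-Nd3 (Gm28438) is 99.71% identical. The copy of mt-Nd4 (Gm28439) is 100% identical over 63.6% of the mRNA, and that of mt-Co1 covers 31.3%. Between the copies of mt-Co2 and mt-Atp6 lie 233 bases on chromosome 1, as in mtDNA, where mt-Atp8 and mt-Tk sit. Nuclear copies of this kind are insertions of mtDNA into chromosomes.

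The 5 plus-strand mRNAs copied over their length had between 47.8 and 195 CPM per kb, and the 4 plus-strand mRNAs outside the copied stretch, whose annotated copies are at most 96.7% identical, had between 3944 and 12326. The lowest of the latter was 20.2-fold above the highest of the former. The partly copied mt-Co1 (7301) and mt-Nd4 (1986) also lay above the fully copied ones. With all their counts divided by only the length that has no near-identical copy, these come to 10622 CPM per kb for mt-Co1 (1062 bases) and 5451 for mt-Nd4 (502 bases), the latter then above mt-Nd5 and mt-Rnr2. Within the stretch, mt-Atp8 has an annotated copy only of the 43 bases it shares with mt-Atp6, and it lay low as well (104). So did the minus-strand mt-Nd6 (234) outside the stretch. A read that fits both places equally has no unique position, and how such reads were counted is not given in the sources used here, so its part in the low counts was not tested.

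The copies had counts of their own. The ratio of member to copy counts lay between 0.800 and 0.927 for mt-Co2, between 1.26 and 1.51 for mt-Atp6 and between 1.44 and 1.68 for mt-Co3 in the 8 libraries. It was 1.40 to 1.85 for mt-Nd4l and 1.93 to 2.68 for mt-Nd3. For the partly copied mt-Nd4 it was 96.4 to 129.6, and for mt-Co1 against Gm29216 it was 441 to 545. Fully copied mRNAs and their copies were thus counted at like levels. Adding the chromosome 1 copy gave sums of 338.6 (mt-Atp6), 291.9 (mt-Co2), 179.2 (mt-Co3), 77.0 (mt-Nd4l) and 75.9 (mt-Nd3) CPM per kb. All 15 nuclear copies together held 0.0336% to 0.0478% of the counts. Levels of these 5 mRNAs are uncertain for that reason, as are those of mt-Atp8 within the copied stretch and the ranks of the partly copied mt-Co1 and mt-Nd4.

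**Figure D2:**
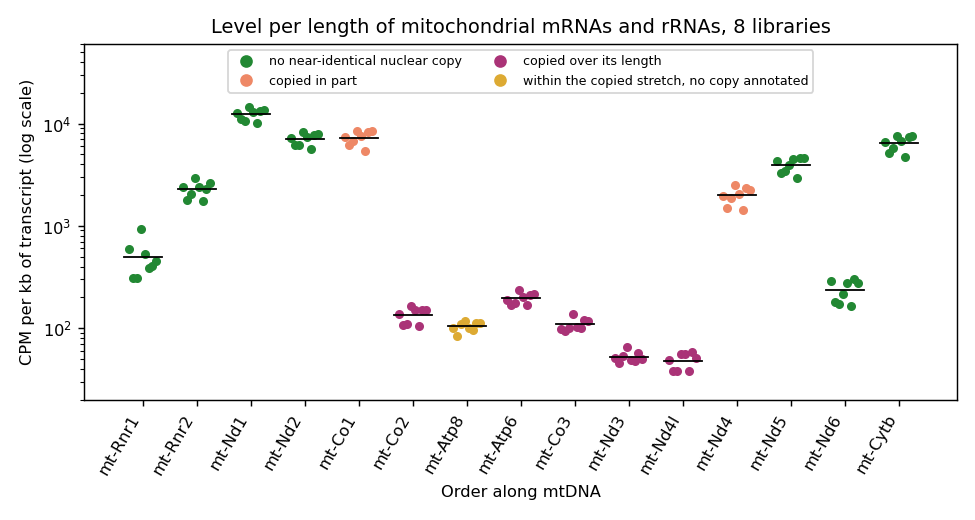
CPM per kb of transcript (log scale) of the mitochondrial mRNAs and rRNAs in genome order, with 1 point per library (8 each) and a line at the mean. Means of the 5 mRNAs copied over their length on chromosome 1 lie between 47.8 and 195, and those of the 4 plus-strand mRNAs outside the copied stretch lie between 3944 and 12326. Within the stretch, mt-Atp8 lies at 104, with an annotated copy only of the 43 bases it shares with mt-Atp6.

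For complex I, the entry point of electrons from NADH, mtDNA encodes 7 subunits of the membrane arm. For mt-Nd1, CPM was 12091, 10632, 10114 and 13756 in scramble cells and 12353, 9782, 12659 and 12984 after Klf4 siRNA, again by replicate number. All Klf4 siRNA values but the lowest fell within the scramble range. Means were 11648 ± 1636 and 11944 ± 1464 (SD, n = 4), and the log2 fold change was 0.058 (SE 0.15, 95% interval -0.32 to 0.43, edgeR adjusted p = 0.879). For mt-Nd2, CPM was 7476, 6359, 6354 and 8534 against 7605, 5865, 8029 and 8165, a log2 fold change of 0.078. Its share of mitochondrial counts was the steadiest of the mRNAs, with a coefficient of variation of 2.31%.

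The mRNA of mt-Nd5, a proton-pumping subunit at the far end of the arm, had 7774, 5979, 6203 and 7178 CPM in scramble cells and 8224, 5398, 8374 and 8421 CPM in Klf4 siRNA cells. Of the 4 Klf4 siRNA values, 3 were above every scramble value and the remaining one was below them all. The log2 fold change was 0.18 (SE 0.19, edgeR adjusted p = 0.675). For mt-Nd4, CPM was 2683, 2042, 2576 and 3461 against 2839, 1948, 3224 and 3117, a log2 fold change of 0.14. Both treatments spanned a similar range. For mt-Nd3, CPM was 17.7, 15.9, 18.7 and 22.9 against 16.8, 16.5, 19.9 and 17.5. Its log2 fold change of -0.016 (SE 0.062, 95% interval -0.15 to 0.11, edgeR adjusted p = 0.919) had the narrowest interval of the 13 mRNAs. For mt-Nd4l, CPM was 14.5, 11.2, 11.2 and 16.5 against 16.6, 11.3, 17.4 and 15.0, a log2 fold change of 0.21. Its last 7 bases overlap mt-Nd4.

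The sole mRNA on the minus strand is mt-Nd6 (chrM:13552-14070), the complex I subunit whose 3′ end overlaps that of mt-Nd5 by 14 bases on the other strand. For mt-Nd6, CPM was 151, 94.1, 88.3 and 111 in scramble cells and 143, 85.2, 157 and 142 after Klf4 siRNA. Scramble replicate 1 stood with the high Klf4 siRNA libraries, and Klf4 siRNA replicate 2 was the lowest of all. Its log2 fold change of 0.24 was the largest among the mRNAs, with an SE of 0.28, a 95% interval of -0.48 to 0.97 and an edgeR adjusted p of 0.704. The ratio of mt-Nd6 to mt-Nd5 counts ran from 0.0142 to 0.0194. Use of strand in the counting is not given in the sources used here, so part of the mt-Nd6 counts could be reads of plus-strand RNA.

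Complex III passes electrons to cytochrome c, and mtDNA encodes its cytochrome b. For mt-Cytb, CPM was 7632, 5917, 6625 and 8709.5 in scramble cells and 7769.8, 5445, 8494 and 8639 after Klf4 siRNA, a log2 fold change of 0.12. Complex IV reduces oxygen, and its 3 mtDNA-encoded subunits form the catalytic core. For mt-Co1, CPM was 11298, 9512, 10516 and 13148 against 11745, 8406, 12686 and 12935, with means of 11118 ± 1538 and 11443 ± 2088 (SD, n = 4). The log2 fold change was 0.090 (SE 0.17, 95% interval -0.35 to 0.53, edgeR adjusted p = 0.833). In both genes the lowest library was Klf4 siRNA replicate 2 and the highest was scramble replicate 4.

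The other complex IV mRNAs lie in the copied stretch. For mt-Co2, CPM was 94.7, 73.5, 75.5 and 113 against 103, 72.0, 103 and 102, a log2 fold change of 0.13. For mt-Co3, CPM was 76.4, 74.1, 78.2 and 109 against 79.8, 78.8, 94.4 and 92.6, a log2 fold change of 0.10. Scramble replicate 4 was again the highest for both. ATP synthase takes a pair of membrane subunits from mtDNA. For mt-Atp6, CPM was 128, 114, 120.1 and 161 against 137, 115, 143 and 146, a log2 fold change of 0.094. For mt-Atp8, CPM was 20.6, 17.2, 22.2 and 23.95 against 20.3, 19.6, 22.9 and 22.6, a log2 fold change of 0.083 (SE 0.064, 95% interval -0.053 to 0.22, edgeR adjusted p = 0.490). Over the 8 libraries the treatments overlapped in every one of these genes. Within batch 1 they did not for mt-Co3, with scramble at 76.4 and 74.1 CPM and Klf4 siRNA at 79.8, 78.8 and 92.6 CPM.

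Of the 24 genes tested, 0 passed an edgeR adjusted p of 0.05 for Klf4 siRNA against scramble, while 1909 of all 16333 genes tested did (11.7%). Of all genes, 4.88% were called higher and 6.81% lower. At an unadjusted p under 0.05 there were also 0 mitochondrial genes, against 3908 of all genes (23.9%). DESeq2's Wald test with batch gave 0 as well. Without a batch term, edgeR called 0 of the 24 and 409 of all 16333 genes, so the share over all genes depends on that term. With batch in the fit, the smallest edgeR adjusted p of the 24 was 0.214, for the minus-strand tRNA mt-Te. These counts do not show that the levels were equal: the 95% intervals of the 13 mRNAs reach from -0.48 to 0.97 on the log2 scale.

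The point estimates were mostly positive without passing the test. Among the mRNAs 12 of 13 were positive, with a median log2 fold change of 0.10 against 4.3e-05 for all genes tested. That median was 0.048 without a batch term. With scramble replicate 2 left out it was 0.034, with scramble replicate 3 left out 0.057, and with Klf4 siRNA replicate 4 left out 0.043. Dropping scramble replicate 1 gave 0.16, dropping scramble replicate 4 gave 0.18, and dropping Klf4 siRNA replicate 2 gave 0.19. The median absolute change of all 24 was 0.126, and that of all genes 0.077. Since the mRNAs come from shared precursors and move together between libraries, their common sign is not that many separate observations. Within both batches 11 of the 13 kept the same sign, and 64.8% of all genes did. In batch 2, Klf4 siRNA replicate 3 lay above both scramble libraries for 3 mRNAs (mt-Nd4l, mt-Nd5 and mt-Nd6) and between them for 10.

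**Figure D3:**
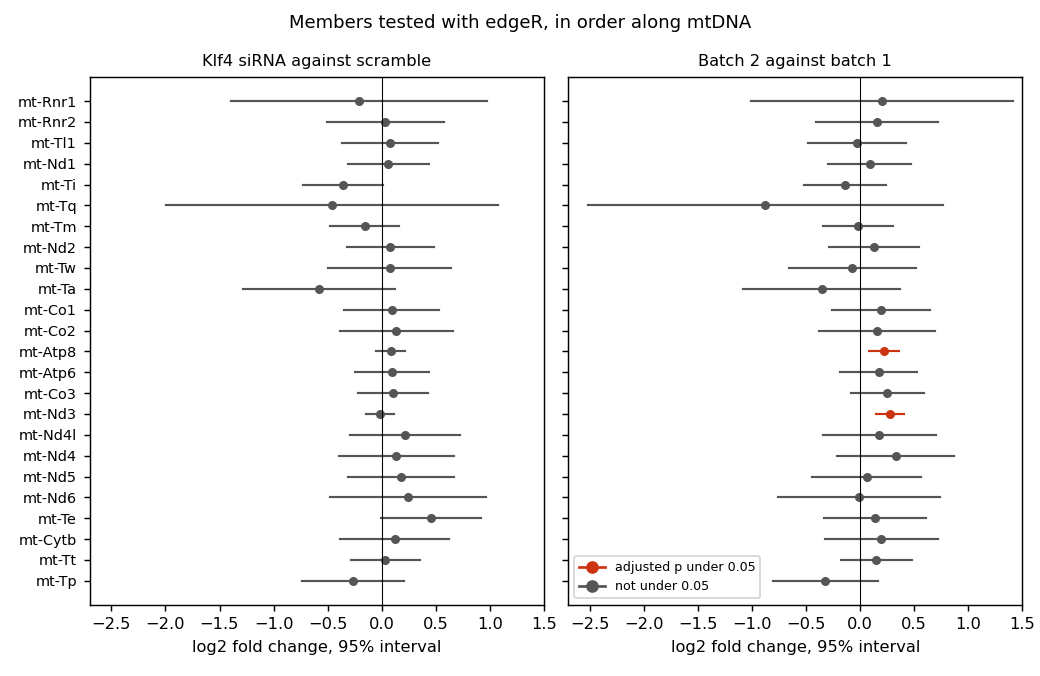
Log2 fold change with its 95% interval for the 24 genes tested, in genome order, for Klf4 siRNA against scramble (left) and batch 2 against batch 1 (right), where red marks an edgeR adjusted p under 0.05. On the left 0 of 24 are red, and on the right mt-Nd3 and mt-Atp8 are.

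The mitochondrial mRNAs varied more between libraries than most genes did. The median biological coefficient of variation, edgeR's measure of spread beyond counting noise, was 0.117 for the 13 mRNAs (0.0606 to 0.171) and 0.0484 for all genes tested. Over the 8 libraries the coefficient of variation of CPM had a median of 15.1% for the mRNAs, and of 8.84% for all genes. Counting noise is small at these depths for the abundant mRNAs, with at least 96092 counts for mt-Nd4 and 500361 for mt-Nd1 in each library.

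The spread was largely shared. In scramble replicate 2 and Klf4 siRNA replicate 2, 13 of 13 mRNAs lay below their own mean over the 8 libraries, and in scramble replicate 3 it was 11 of 13. In Klf4 siRNA replicate 3, 13 of 13 lay above it, as did 12 of 13 in scramble replicate 4 and in Klf4 siRNA replicate 4. The mean deviation over the mRNAs (log2) was 0.039, -0.26, -0.16 and 0.23 for the scramble replicates and 0.086, -0.30, 0.20 and 0.16 for the Klf4 siRNA replicates. Low and high libraries thus stood in both treatments and in both batches, although the lowest pair were both of batch 1. Klf4 siRNA replicate 2 was the lowest library for 8 mRNAs, and scramble replicate 4 the highest for 10. As a share of the mitochondrial counts the mRNAs varied less, with a median coefficient of variation of 7.01%, smaller than that of CPM for 12 of 13. Shares add up to a fixed sum, which by itself lowers the spread of the most abundant genes.

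**Figure D4:**
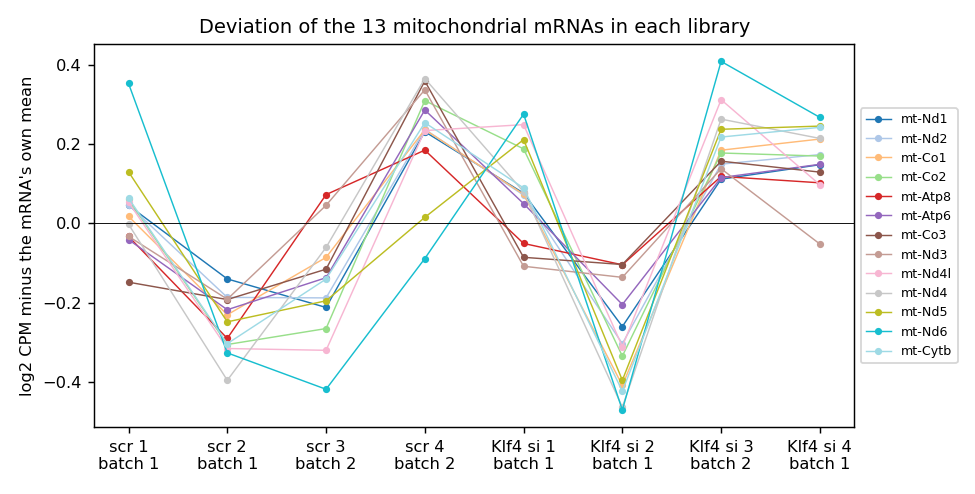
Log2 CPM of each of the 13 mRNAs minus its own mean over the 8 libraries, with a line joining the values of 1 mRNA. The lines dip together in scramble replicate 2 and Klf4 siRNA replicate 2, where 13 of 13 are below 0, and sit above 0 together in Klf4 siRNA replicate 3.

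The rRNAs form the core of the mitochondrial ribosome, mt-Rnr1 of its small and mt-Rnr2 of its large subunit. For mt-Rnr2, CPM was 3768, 2802, 3216 and 4662 in scramble cells and 3826, 2795, 3601 and 4107 after Klf4 siRNA, a 1.67-fold range. The estimated log2 fold change was 0.033 (SE 0.21), with both treatments spread alike. For mt-Rnr1, CPM was 570.3, 297, 292 and 898 against 506, 369, 390.3 and 429, a 3.08-fold range. Scramble replicate 4 held the highest value and scramble replicates 2 and 3 the lowest, so the scramble range enclosed every Klf4 siRNA value. Means were 515 ± 287 and 424 ± 60.1 (SD, n = 4), and the log2 fold change was -0.21 (SE 0.46, 95% interval -1.39 to 0.97, edgeR adjusted p = 0.855).

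The ratio of mt-Rnr1 to mt-Rnr2 counts was 0.151, 0.106, 0.0908 and 0.193 for the scramble replicates and 0.132, 0.132, 0.108 and 0.104 for the Klf4 siRNA replicates. Of 7 tested RNAs on a list of RNAs that lack a poly(A) tail or stay in the nucleus, 2 (Rn7sk and Gm42418) put the scramble libraries in the same order as mt-Rnr1, and the Klf4 siRNA libraries in another. Rn7sk, a small nuclear RNA that regulates transcription elongation, had 18.2, 2.15, 1.70 and 34.8 CPM in scramble cells and 13.7, 8.91, 6.89 and 6.94 CPM after Klf4 siRNA, a 20.4-fold range. Gm42418, an annotation that takes reads of nuclear rRNA, took 0.660%, 0.0938%, 0.0765% and 1.58% of counts in scramble cells and 0.580%, 0.461%, 0.312% and 0.330% after Klf4 siRNA. Both were highest in scramble replicate 4 and lowest in scramble replicates 2 and 3. The part of carried-over RNA without a tail in the mt-Rnr1 counts was not tested. Histone genes, whose mRNAs mostly lack a tail, took 0.0049% to 0.0080% of counts, with scramble replicates 2 and 3 lowest and replicate 4 highest of the scramble group. Their highest share over both treatments was in Klf4 siRNA replicate 4 (0.0080%), where Rn7sk (6.94 CPM) and Gm42418 (0.330%) were low within the Klf4 siRNA group. The other 5 on the list had other orders. Scramble replicate 4 was the lowest scramble library for Terc, the RNA of telomerase (0.806, 0.574, 0.515 and 0.449 CPM), for Malat1, a nuclear RNA (669.5, 548, 501 and 456 CPM), and for Neat1.

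**Figure D5:**
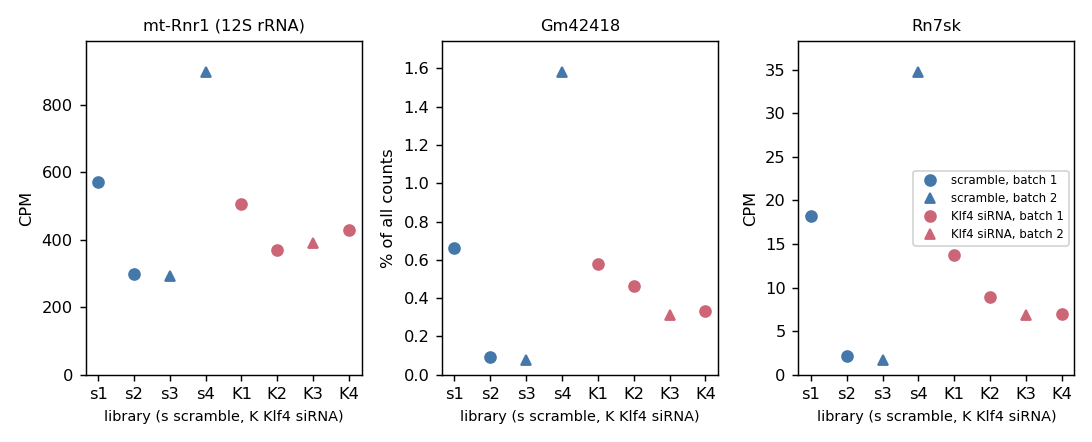
Level in each library of mt-Rnr1 (CPM), Gm42418 (% of all counts) and Rn7sk (CPM), coloured by treatment and shaped by batch. In all 3 panels scramble replicate 4 is highest and scramble replicates 2 and 3 are lowest.

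Transfer RNAs are short, structured and without a poly(A) tail, and they left few counts, between 2415 and 3971 per library over all 22. Most were of mt-Tw, with 60.4% to 66.7% of tRNA counts. For mt-Tw, CPM was 47.5, 31.4, 32.4 and 41.1 in scramble cells and 49.4, 30.6, 40.1 and 42.4 after Klf4 siRNA. Its level of 588 ± 108 CPM per kb was above that of mt-Atp6 (195 CPM per kb), the highest of the fully copied mRNAs. For mt-Tt, the threonine tRNA that starts at position 15289, the base after mt-Cytb ends, CPM was 13.2, 10.1, 12.8 and 13.9 against 14.1, 9.77, 13.1 and 12.95. In both, the replicates numbered 2 were the lowest of their group. Whether these reads come from mature tRNAs or from precursors that still carry an mRNA was not tested.

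The remaining 7 tRNAs tested had at most 227 counts in a library. For mt-Te, the glutamate tRNA, CPM was 0.591, 0.489, 0.453 and 0.674 against 0.629, 0.554, 0.835 and 0.943, from 23 to 50 counts. The estimate for Klf4 siRNA was a log2 fold change of 0.46 (SE 0.22, 95% interval -0.0036 to 0.92, edgeR adjusted p = 0.214). For mt-Ti, the isoleucine tRNA, CPM was 1.31, 1.25, 1.22 and 1.30 against 1.48, 0.882, 0.854 and 0.867, from 45 to 78 counts. Of the 4 Klf4 siRNA values, 3 lay below the scramble values and replicate 1 lay above them. Its log2 fold change of -0.36 (SE 0.18) had an edgeR adjusted p of 0.222, and without Klf4 siRNA replicate 1 it was -0.55 with an edgeR adjusted p of 0.033. The log2 fold changes of mt-Tl1, mt-Tm, mt-Tp, mt-Tq and mt-Ta were 0.076, -0.16, -0.27, -0.46 and -0.58, none past the test, at 8 to 51 counts for mt-Tq and 8 to 25 for mt-Ta.

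Between batches, 2 of the 24 genes were called, both higher in batch 2, against 5343 of all genes (32.7%, with 16.8% higher). The complex I subunit mRNA mt-Nd3 was 15.9 to 17.7 CPM in batch 1 and 18.7 to 22.9 CPM in batch 2. The batches differed by 0.28 on the log2 scale (SE 0.063, edgeR adjusted p = 0.0022). The ATP synthase mRNA mt-Atp8 was higher by 0.22 on the log2 scale (SE 0.065, edgeR adjusted p = 0.017), but leaving out scramble replicate 2 gave an edgeR adjusted p of 0.087, and leaving out scramble replicate 4 one of 0.069. Both genes had the smallest standard errors of the mRNAs, and both lie in the stretch copied on chromosome 1. Of the mRNAs 12 of 13 were positive by batch, with a median log2 fold change of 0.18 against 0.00065 for all genes, and that median was 0.12 with scramble replicate 2 left out and 0.065 with scramble replicate 4 left out.

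The count of 2 rests on single libraries. Without Klf4 siRNA replicate 3 there were 4 calls by batch, as mt-Tq (log2 fold change -1.96, edgeR adjusted p = 0.014) and mt-Tp (log2 fold change -0.80, edgeR adjusted p = 0.015) were called lower. None of the 13 nuclear copies that could be tested was called by treatment or by batch.

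Whether the treatment acted differently in the batches was tested as an interaction in edgeR, which called 0 of 24 genes and 0% of all genes. At an unadjusted edgeR p under 0.05 there were 4 of the 24 mitochondrial genes, all tRNAs of few counts (mt-Tp, mt-Tq, mt-Tm and mt-Ta). Of all 16333 genes tested there were 540, a smaller share. The smallest adjusted p from edgeR among them was 0.999. Batch 2 holds a single Klf4 siRNA library, which limits this test.

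The nuclear genes that run mitochondrial expression were read from the same fit, by lists of known function. Of 18 genes for mtDNA transcription and maintenance, 2 were higher after Klf4 siRNA and 0 lower (11.1%, near the 11.7% called over all genes), with a median log2 fold change of 0.032. Lig3, the ligase that seals mtDNA, went from 26.1 ± 0.820 to 30.3 ± 2.73 CPM (SD, n = 4; log2 fold change 0.18, SE 0.045, edgeR adjusted p = 0.014). Tfb1m, a methyltransferase that modifies the 12S rRNA, went from 7.76 ± 0.395 to 9.40 ± 0.646 CPM (SD, n = 4; log2 fold change 0.25, SE 0.065, edgeR adjusted p = 0.015). Polrmt, the mitochondrial RNA polymerase, was at 55.5 ± 1.72 and 58.4 ± 2.00 CPM (edgeR adjusted p = 0.308, n = 4). Tfam, which packages mtDNA and starts transcription, was at 78.6 ± 1.85 CPM in scramble cells, and its log2 fold change was 0.032 (n = 4, edgeR adjusted p = 0.614).

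Of 26 genes for processing and stability of mitochondrial RNA, 4 were higher and 0 lower (15.4%, against 11.7% called and 4.88% higher over all genes), with a median of 0.023. Besides Tfb1m, which is in both lists, they were Elac2, which cuts the 3′ ends of tRNAs (45.1 ± 1.17 to 49.0 ± 1.17 CPM, log2 fold change 0.11), Fastkd1 (0.13), an RNA-binding protein of the matrix, and Ptcd3 (0.088), a protein of the small ribosomal subunit. Lrpprc, which stabilises mitochondrial mRNAs, was at 457 ± 11.2 and 447 ± 7.76 CPM (edgeR adjusted p = 0.557, n = 4). Of 13 regulators of mitochondrial biogenesis, 0 were called by edgeR (0%), with a median of 0.020. Ppargc1a, their best known coactivator, was at 435 ± 15.2 and 444 ± 12.9 CPM.

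Nuclear subunits of the complexes that hold mtDNA-encoded partners gave 2 higher and 3 lower of 75 tested (6.67%, below the 11.7% over all genes), with a median log2 fold change of 0.0013. For complex I these were 0 higher and 2 lower of 36, Ndufv3 (-0.13, edgeR adjusted p = 0.011) and Ndufb5 (-0.095, edgeR adjusted p = 0.044). For complex III there were none of 9. Of 13 tested for complex IV, Cox5a was higher (0.097, edgeR adjusted p = 0.039) and Cox6a1 lower, at 516 ± 38.9 and 444 ± 25.1 CPM (-0.18, edgeR adjusted p = 0.00059). Of 17 for ATP synthase, Atp5g2, a ring subunit, was higher (0.13, edgeR adjusted p = 0.022). By batch, 37 of the 75 were higher and 3 lower in batch 2, with a median of 0.082, where 32.7% of all genes were called and 16.8% were higher.

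Most of these small nuclear calls rest on single libraries. Each of the 8 libraries was left out in turn, and Cox6a1 passed every time (highest edgeR adjusted p 0.015). Ndufv3 (without scramble replicate 2 and Klf4 siRNA replicate 3) and Lig3 (without scramble replicates 1 and 2) missed the threshold in 2 of these 8 fits, and Tfb1m in 3. Atp5g2 missed it in 4, Elac2 and Fastkd1 in 5, and Ptcd3, Ndufb5 and Cox5a in 6. Leaving out any 1 of the 8 libraries lost at least 1 of these calls. The highest edgeR adjusted p in such fits was 0.286, for Ndufb5 without Klf4 siRNA replicate 3. Without a batch term all of them missed the threshold, and with library size alone as scaling Elac2, Fastkd1, Ptcd3, Ndufb5 and Cox5a did.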

How the data were processed

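Poly(A) RNA of the 8 libraries had been counted per gene by the authors, and the deposited values are whole-number counts, not normalized. FastQC, STAR, featureCounts, DESeq2 and the build mm10 are named in the submitters' processing notes, without versions or settings. The annotation, use of strand and treatment of reads that fit several places are not given in the sources used here. All 55536 identifiers and symbols matched GENCODE release 21.

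Here filterByExpr on treatment kept 16333 genes, sizes were scaled with TMM (factors 0.964 to 1.025), and edgeR 4.0.16 in R 4.3.3 fitted batch and treatment by robust quasi-likelihood (5 residual degrees of freedom). Tests were two-sided with Benjamini-Hochberg adjustment over all tested genes and a threshold of 0.05. CPM values use the scaled sizes, and an SE is the log2 fold change over the root of F. Copies were searched with blastn 2.17.0. In data simulated for the treatment comparison over 16310 genes, 99% of log2 changes of 1 and 70% of those of 0.3 were recovered, and 10 of 179 calls were false. The changed genes were drawn from the whole table above a low level. The median biological coefficient of variation was 0.117 for the mitochondrial mRNAs and 0.0484 for all genes tested, so these rates do not carry over to the former. Recovery among mitochondrial genes was not simulated separately. Every gene whose symbol starts with mt- is accounted for and each tested one is named. Each nuclear list gives up to 4 called genes, taken by smallest adjusted p, beside Klf4, Polrmt, Tfam and the nuclear copies. Lrpprc, Ppargc1a, Rn7sk, Gm42418, Terc, Malat1 and Neat1 were named after their values were seen. The members and lists were chosen with earlier results of these data known. Intervals are 95%. Counts may hold PCR duplicates, and errors given are those between libraries.

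The alternatives were DESeq2 1.42.0, other scalings, other filters, no batch term, batch 1 alone, a replicate block and each library left out.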

Additional observations from a re-analysis of the deposited data

Results flagged for a closer look

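In groups of 4 libraries, a library was singled out where its gap to the nearest other value took an unusually large part of the group's range (Dixon's ratio at the 95% level). This held in 6 of 50 groups of mitochondrial values. For a single group chance gives about 1 in 20. The genes move together between libraries, so the 50 groups are not separate observations and their count was not set against chance. Klf4 siRNA replicate 2 was the lowest of its group for the share of counts in mitochondrial genes (4.11%, ratio 0.834), for mt-Nd5 (5398 CPM, ratio 0.935) and for mt-Co2 (72.0 CPM, ratio 0.959). Scramble replicate 4 was the highest of its group for mt-Co3 (109 CPM, ratio 0.883). Scramble replicate 3 was the lowest for the tRNA mt-Tl1 (1.70 CPM, ratio 0.851). Klf4 siRNA replicate 1 was the highest for the tRNA mt-Ti (1.48 CPM, ratio 0.956).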

How the results depend on the processing

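Of the mitochondrial genes, 0 were called by treatment under other scalings, other filters, no batch term, batch 1 alone, a replicate block and DESeq2's Wald test. With each library left out in turn the count was 0 to 1 by treatment and 1 to 4 by batch, while calls over all genes by treatment ran from 934 to 2021. Single mitochondrial genes past the threshold reversed direction in 0 of these fits. Same-numbered libraries did not deviate together throughout (correlations 0.49, 0.42, 0.72 and -0.34), and the numbers were not taken as pairs. The negative value is that of replicates 4, whose libraries lay in different batches, so pairing and batch cannot be told apart there. With the replicate block in place of batch, 0 mitochondrial genes and 1220 of all genes were called by treatment, and the median log2 fold change of the mRNAs was 0.048, as without a batch term. The interaction called 0 mitochondrial genes in each of the 9 fits made, with 13 of all genes without scramble replicate 3, and without Klf4 siRNA replicate 3 it could not be fitted. Mean shares stayed within 1 SD, from 4.69% (mRNAs alone) to 5.31% in scramble cells and from 4.93% to 5.74% after Klf4 siRNA.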
